A study of Rattus norvegicus with 12 samples.

Results

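The genes described here are 40 genes of DNA replication and mitosis that were named by their known roles, from the helicase that opens DNA in S phase to the proteins that part the daughter cells. Of these, 38 were among the 13151 genes in the normalised expression table of rat renal cortex. The expression of Cenpe and Anln was not analysed here, while their promoters were searched for motifs. Aurkb, Bub1b, Birc5 and Ube2c were in the table but reached 1 CPM (reads scaled to a common library size, in counts per 1000000) in fewer than 4 rats, so that 34 members were tested among 11633 genes. The study addressed obesity-related nephropathy in 3 groups of male Zucker rats at 32 weeks of age, with 4 rats in each group and a library of ribosomal RNA-depleted total RNA from the kidney cortex of each rat. Zucker lean (ZL) rats were the controls. Zucker fatty (ZF) rats lack a functional leptin receptor and become obese, and they received no drug. ZF-SGLT2i rats were of the same fatty strain and received canagliflozin, an inhibitor of the sodium-glucose cotransporter of the proximal tubule, mixed into the food at 10 mg/kg body weight a day, starting at 24 weeks of age and lasting 8 weeks. The receptor defect is inherited and not limited to the kidney. Kidney wedge biopsies are described for the lean and fatty rats of a time-course experiment and not for the canagliflozin experiment. The study calls the sequenced untreated fatty rats by the group names of both, so that their origin is not settled here.

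A dividing cell first copies its genome in S phase. The MCM2-7 ring, activated by Cdc45 and the GINS complex, unwinds the DNA while PCNA clamps the polymerases and ribonucleotide reductase and thymidylate synthase supply the building blocks. In mitosis, cyclin B with Cdk1 condenses and aligns the chromosomes, the spindle and kinetochore proteins pull them apart, and the cytokinesis proteins close the cell. Tubule cells of the adult kidney rarely divide, whereas after injury they re-enter the cycle, and immune cells that settle in the tissue divide too.

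The renal cortex was recognisable in the libraries by abundant proximal tubule transcripts, with Slc34a1 at means of 4580, 3935 and 3455 CPM and Lrp2 at 10740, 7835 and 6440 CPM in ZL, ZF and ZF-SGLT2i rats. The podocyte gene Nphs1 was present as well, with means of 143, 199 and 197 CPM. The reads counted on genes came to 8886901 to 12210257 per ZL rat, 8824980 to 11191377 per ZF rat and 8914666 to 10293049 per ZF-SGLT2i rat. Against this depth most mitotic members were low. Over the 38 members and 12 rats the number of reads ran from 1 to 1012, 12 members had under 10 reads in at least 1 rat, and 9 had at least 100 reads in every rat. CPM values are not corrected for transcript length, so levels are compared below between rats and never between genes. The cortex is a mixture of cells, and in such bulk RNA a smaller number of cycling cells and less of a transcript in each cycling cell cannot be told apart.

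Replication members and the other members differed in the motif letters of their promoters, a property that does not depend on their expression here. RefSeq (build GRCr8) promoters were at hand for 33 of the 40 members, and not for Mcm4, Rrm2, Ccna2, Aurkb, Tpx2, Ube2c and Racgap1. Windows from 250 bases before to 50 bases after the start were searched on both strands. The E2F site was searched as TTCCCGC, in the form TTCGCGC and in the form TTGGCGC, and the box bound by NF-Y as CCAAT. The cell cycle genes homology region (CHR) was searched as TTTGAA and in the form TTTAAA, and through it the DREAM complex and B-Myb with FoxM1 act on mitotic genes. An E2F match stood in 7 of 9 replication promoters (77.8%) and in 5 of 24 promoters of the other members (20.8%), compared with 14.2% of the 9269 promoters of tested genes and 7.52% of all 33469 promoters of that length. A CHR match stood in 24 of 24 promoters of the other members and in 1 of 9 replication promoters (11.1%), compared with 18.5% of tested genes and 28.3% of all promoters. CCAAT was common in both, with 77.8% and 83.3% compared with 37.2% of tested genes and 37.5% of all promoters, and CCAAT together with CHR stood in 83.3% of the other members and in 7.31% of tested genes. The 250 bases before the start are printed below for Mcm5, the replication member with the smallest adjusted p in ZF against ZL and also in ZF-SGLT2i against ZF among those with a promoter at hand, and for Ect2 and Ccnb1, which hold that place among the other members in the first and the second of these comparisons. They show these layouts, with E2F, CCAAT and CHR letters in capitals. Mcm5 lies at chr19:13488563-13488812 on the plus strand, Ect2 at chr2:111966627-111966876 on the minus strand and Ccnb1 at chr2:33655226-33655475 on the minus strand, all in GRCr8.
Mcm5: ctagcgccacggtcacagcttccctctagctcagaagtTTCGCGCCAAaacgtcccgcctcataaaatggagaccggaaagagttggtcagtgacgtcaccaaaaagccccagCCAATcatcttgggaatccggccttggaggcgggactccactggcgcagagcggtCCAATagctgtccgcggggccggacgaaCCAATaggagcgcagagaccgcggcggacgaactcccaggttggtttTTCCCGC
Ect2: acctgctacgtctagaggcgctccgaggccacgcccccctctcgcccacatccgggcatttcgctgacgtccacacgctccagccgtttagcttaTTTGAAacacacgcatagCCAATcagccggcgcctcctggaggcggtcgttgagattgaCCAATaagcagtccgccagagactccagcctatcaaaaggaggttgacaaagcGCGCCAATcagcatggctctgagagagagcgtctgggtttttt
Ccnb1: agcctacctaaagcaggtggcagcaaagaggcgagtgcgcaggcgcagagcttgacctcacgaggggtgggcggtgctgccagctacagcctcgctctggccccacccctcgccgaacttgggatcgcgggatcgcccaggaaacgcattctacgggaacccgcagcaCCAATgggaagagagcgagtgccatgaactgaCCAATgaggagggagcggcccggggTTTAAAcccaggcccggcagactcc
The Mcm5 sequence holds 3 E2F matches and 3 CCAAT boxes and no CHR letters, with TTCGCGC and the reverse complement of TTGGCGC overlapping in the capitals TTCGCGCCAA. In Ect2 the E2F letters read on the opposite strand overlap the CCAAT box nearest the start. A further CHR match of Ect2, TTTGAA, begins 3 bases before the start and runs past the printed end, so it is not in capitals. Ccnb1 has a pair of CCAAT boxes followed by TTTAAA 25 bases before the start and no E2F letters. These are matches of letters and not mapped binding sites, and a window without a match says nothing about the factor.

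**Figure D1:**
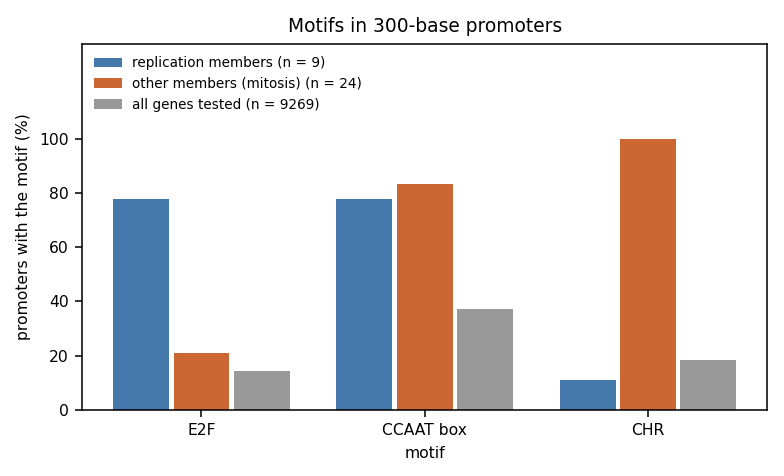
Share of 300-base promoters (percent, vertical axis) that hold an E2F, CCAAT or CHR match, for the 9 replication members, the 24 other members and the 9269 tested genes with a promoter in RefSeq. E2F matches reach 77.8% in replication members and CHR matches 100% in the other members.

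In ZF rats compared with ZL rats, 4 of the 34 members rose and none of them fell by the test (limma on log2(CPM + 1), adjusted p under 0.05 over all genes tested), and all 4 were subunits of the replicative helicase, Mcm2, Mcm4, Mcm5 and Mcm6. That is 11.8% of the members, whereas 18.8% of all tested genes passed in this comparison (8.19% upward and 10.6% downward). In ZF-SGLT2i rats compared with ZF rats, 3 members fell, Ccnb1, Mki67 and Cenpf, and 1 rose, Racgap1, which is 11.8% of the members compared with 3.15% of all tested genes (1.75% downward and 1.39% upward). In ZF-SGLT2i rats compared with ZL rats, Mcm2, Mcm4, Gins2 and Racgap1 were higher and Mki67 was lower, 14.7% of the members compared with 27.4% of all tested genes (12.4% upward and 15.0% downward). Each pair of comparisons shares the rats of 1 group, so they are not independent of each other.

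The direction of the whole list is seen in the medians. The median log2 fold change of the 34 members was 0.18 in ZF against ZL, with 29 members above 0 and 5 below, while the median of all tested genes was -0.008. It was -0.24 in ZF-SGLT2i against ZF, with 6 above and 28 below, while that of all genes was 0.006. In ZF-SGLT2i against ZL it was -0.06 with 14 above and 20 below. The ZF group had the highest mean of the 3 groups in 27 of 34 members (79.4%) and in 25.1% of all tested genes. Among the 11 replication members the ZL group was the lowest in 8 (72.7%, compared with 38.3% of all tested genes), and among the 23 other members the ZF-SGLT2i group was the lowest in 18 (78.3%, compared with 33.4%). Fold changes on the log2(CPM + 1) scale understate the change of low genes, so ratios of group means are given beside them.

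**Figure D2:**
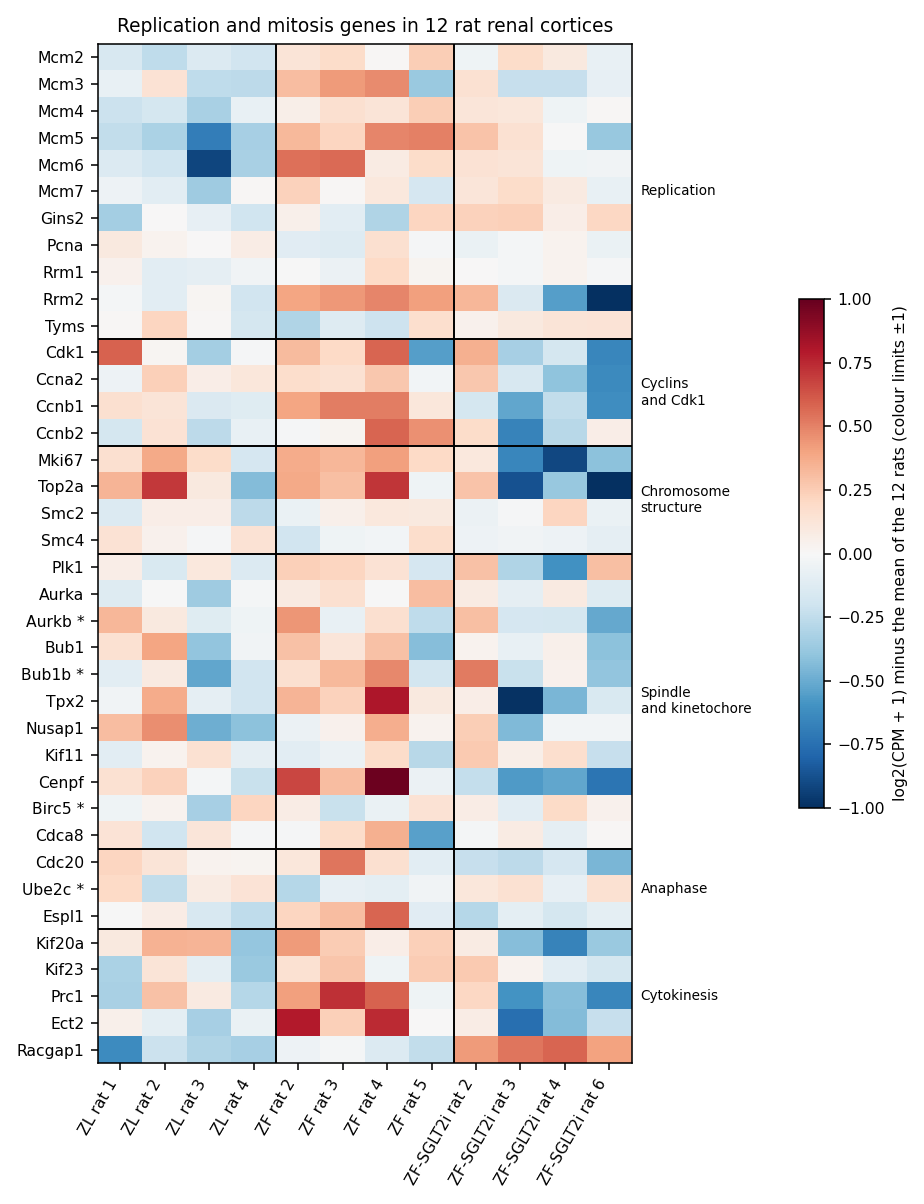
Each row is 1 of the 38 members in the table and each column 1 of the 12 rats, and the colour is log2(CPM + 1) minus the mean of the 12 rats, cut at 1 in either direction. Mcm2, Mcm4, Mcm5 and Mcm6 are blue in the ZL rats and white to red in the ZF rats, many rows from Cdk1 to Ect2 are blue in ZF-SGLT2i rats 3, 4 and 6, Racgap1 is red in all 4 ZF-SGLT2i rats, and asterisks mark the 4 members that were not tested.

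**Figure D3:**
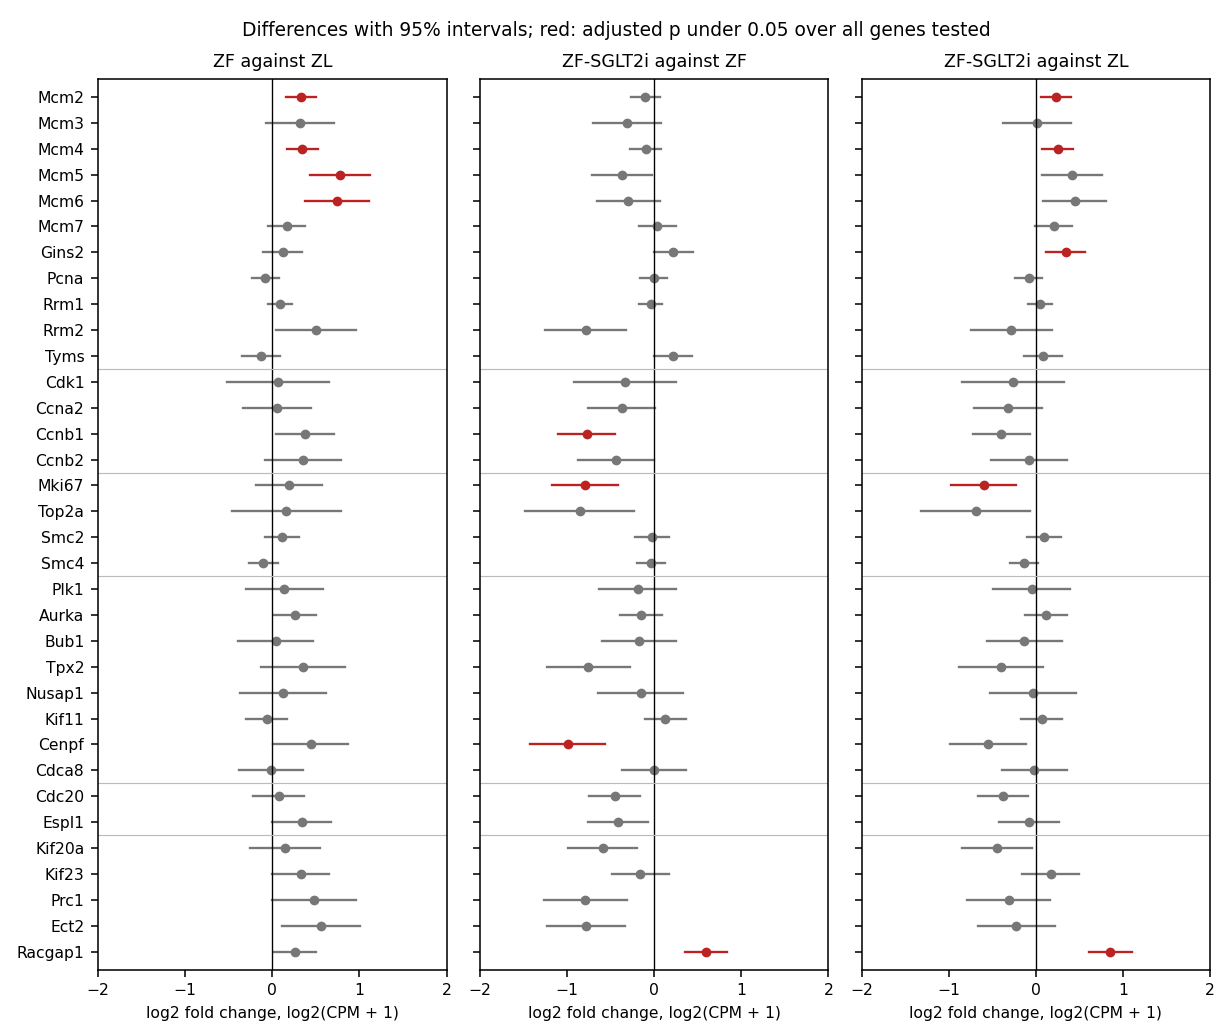
Log2 fold change of each of the 34 tested members with its 95% confidence interval from limma, in 3 panels for the 3 comparisons, with adjusted p under 0.05 in red. Red points are 4 MCM genes in ZF against ZL, Ccnb1, Mki67, Cenpf and Racgap1 in ZF-SGLT2i against ZF, and Mcm2, Mcm4, Gins2, Mki67 and Racgap1 in ZF-SGLT2i against ZL.

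Of the 6 subunits of the helicase ring, 4 rose in ZF rats. In what follows values are listed in the order ZL rats 1, 2, 3 and 4, ZF rats 2, 3, 4 and 5, and ZF-SGLT2i rats 2, 3, 4 and 6. Mcm5 stood at 2.06, 1.91, 1.25 and 1.88 CPM in ZL rats, at 3.55, 3.21, 4.10 and 4.15 CPM in ZF rats and at 3.43, 3.03, 2.62 and 1.78 CPM in ZF-SGLT2i rats. Every ZF rat was above every ZL rat, and the treated rats lay between and overlapped both groups. Mcm5 was 2.12-fold higher in ZF than in ZL rats (log2 fold change 0.78 ± 0.16 (SE), limma, adjusted p = 0.00533, n = 4 per group), on 11 to 48 reads a rat. Mcm6 stood at 5.20, 4.94, 2.61 and 4.47 CPM in ZL rats, at 9.01, 9.12, 6.24 and 6.78 CPM in ZF rats and at 6.57, 6.46, 5.63 and 5.68 CPM in ZF-SGLT2i rats. Its ZL values were all below those of the fatty rats, treated or not, with ZL rat 3 the lowest. The difference between ZF and ZL was 1.81-fold (log2 fold change 0.74 ± 0.17, limma, adjusted p = 0.00948).

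Mcm2 and Mcm4 rose by less and varied less. Mcm2 stood at 17.4, 16.3, 17.7 and 17.1 CPM in ZL rats, at 21.6, 22.5, 19.7 and 23.4 CPM in ZF rats and at 19.0, 22.4, 21.0 and 18.6 CPM in ZF-SGLT2i rats. Both fatty groups lay wholly above the lean rats and overlapped each other. Mcm2 was 1.27-fold higher in ZF than in ZL rats (log2 fold change 0.33 ± 0.08, limma, adjusted p = 0.0118) and 1.18-fold higher in ZF-SGLT2i than in ZL rats (0.23 ± 0.08, limma, adjusted p = 0.0443). Mcm4 stood at 11.1, 11.4, 10.2 and 12.3 CPM in ZL rats, at 13.6, 14.7, 14.4 and 15.6 CPM in ZF rats and at 14.3, 14.2, 12.7 and 13.2 CPM in ZF-SGLT2i rats, again with no overlap between lean and fatty. Its log2 fold change was 0.35 ± 0.08 in ZF against ZL (limma, adjusted p = 0.0115) and 0.25 ± 0.08 in ZF-SGLT2i against ZL (limma, adjusted p = 0.0364). The 2 calls of ZF-SGLT2i against ZL were lost when single rats were left out, for Mcm2 without any ZL rat, ZF rat 2 or 3, or treated rat 3 or 4 (adjusted p = 0.0541 to 0.134) and for Mcm4 without ZL rat 1, 2 or 3, or treated rat 2, 3 or 6 (adjusted p = 0.0539 to 0.0946). Both were also lost by DESeq2 (adjusted p = 0.055 and 0.0766) and with limma on only the 2 groups compared (adjusted p = 0.0609 for each). By edgeR both passed. All 4 MCM calls of ZF against ZL held without any single rat. In ZF-SGLT2i against ZF the 4 genes had log2 fold changes of -0.37 to -0.10 that did not pass, and the 95% interval of Mcm5 ran from -0.71 to -0.03. In ZF-SGLT2i against ZL, Mcm5 (0.41, limma, adjusted p = 0.0714) passed without treated rat 6 (adjusted p = 0.0240).

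The remaining subunits of the ring did not pass the test. Mcm3 had means of 3.51 ± 0.61, 4.74 ± 1.37 and 3.55 ± 0.59 CPM (SD, n = 4) in ZL, ZF and ZF-SGLT2i rats, with ZF rat 5, at 2.73 CPM, below every lean rat. Mcm7 had means of 26.8 ± 3.0, 30.3 ± 3.5 and 31.0 ± 2.4 CPM. Summed over the 6 subunits, the level was 64.8 ± 5.0 CPM in ZL rats, 82.9 ± 3.7 CPM in ZF rats and 77.2 ± 5.2 CPM in ZF-SGLT2i rats, and the lowest fatty rat of either group, at 70.5 CPM, was above the highest lean rat at 68.3 CPM. Markers of injured tubule moved with these genes between lean and fatty rats. Of 8 such markers (Havcr1, Lcn2, Vcam1, Spp1, Krt8, Krt18, Vim and Sox9) 6 rose in ZF against ZL, Vcam1 did not pass there, and Sox9 was at means of 109 CPM in ZL and 68.7 CPM in ZF rats (-0.60, limma, adjusted p = 0.134). Their summed level, led by Spp1, was 494 ± 55 CPM in ZL, 1250 ± 638 CPM in ZF and 991 ± 322 CPM in ZF-SGLT2i rats, while the summed level of 5 proximal tubule markers, led by Lrp2, was 17630 ± 826, 13640 ± 1555 and 11810 ± 1306 CPM. Of the 5, Aqp1 passed in ZF against ZL (-0.47, limma, adjusted p = 0.0267), and Slc5a2 had means of 426, 460 and 401 CPM. The part of these shifts in the MCM result was not tested.

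Gins2, a subunit of the GINS complex that joins the helicase, was highest in the treated rats. It stood at 34.7, 44.2, 41.7 and 38.4 CPM in ZL rats, at 45.7, 40.9, 35.7 and 51.5 CPM in ZF rats and at 51.9, 52.4, 46.4 and 51.2 CPM in ZF-SGLT2i rats. The treated rats were all above the lean rats, while the ZF rats were spread over the range of both. It was 1.27-fold higher in ZF-SGLT2i than in ZL rats (log2 fold change 0.34 ± 0.10, limma, adjusted p = 0.0250), a call that was lost without ZL rat 1 or 4, or treated rat 2, 3 or 6 (adjusted p = 0.0524 to 0.0824). Gins2 overlaps the gene Gse1 in RefSeq, and since the strand setting of the counting is not given in the sources used here, reads of the overlap are uncertain. Pcna, the sliding clamp, did not pass in any of the 3 comparisons. Its values were 29.1, 27.7, 27.1 and 28.5 CPM in ZL rats, 24.9, 24.7, 30.3 and 26.8 CPM in ZF rats and 25.7, 26.7, 27.8 and 25.8 CPM in ZF-SGLT2i rats, with all groups overlapping. The 95% interval of its log2 fold change was -0.23 to 0.08 in ZF against ZL and -0.16 to 0.15 in ZF-SGLT2i against ZF.

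Of the 3 enzymes of nucleotide supply none passed by limma in any of the comparisons, while an unadjusted p under 0.05 was found for Rrm2 in ZF against ZL and for Rrm2 and Tyms in ZF-SGLT2i against ZF. Rrm1, the large subunit of ribonucleotide reductase, had means of 45.0 ± 2.2, 47.9 ± 3.8 and 46.5 ± 0.8 CPM, and Tyms, thymidylate synthase, had means of 23.3 ± 2.7, 21.2 ± 3.2 and 24.7 ± 0.8 CPM, with overlapping groups for both. Rrm2, the small subunit that is made in S phase, was at 4.29 to 5.10 CPM in ZL rats and 6.90 to 7.44 CPM in ZF rats, while in ZF-SGLT2i rats it ran from 1.89 CPM in rat 6 to 6.57 CPM in rat 2. Its ZF values did not overlap with either other group. Even so it missed the threshold in both comparisons (log2 fold change 0.50, limma, adjusted p = 0.120 against ZL, and -0.78, limma, adjusted p = 0.0676, for ZF-SGLT2i against ZF), and it overlaps Cys1, which had means of 150, 119 and 118 CPM. No replication member passed in ZF-SGLT2i against ZF by limma or edgeR, where 4 of the 11 had an unadjusted p under 0.05, compared with 1996 of all 11633 tested genes, and DESeq2 called Rrm2.

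The cyclins and Cdk1, which start mitosis, were counted on few reads and had their lowest means in the treated rats. Ccnb1, cyclin B1, stood at 2.06, 1.99, 1.47 and 1.52 CPM in ZL rats, at 2.59, 2.91, 2.91 and 1.97 CPM in ZF rats and at 1.43, 0.909, 1.31 and 0.780 CPM in ZF-SGLT2i rats. Each treated rat was below each rat of the other groups, while ZF rat 5 lay among the lean rats. Ccnb1 in ZF-SGLT2i rats was 0.427 times its level in ZF rats (log2 fold change -0.77 ± 0.15, limma, adjusted p = 0.0156), on 7 to 34 reads a rat. Without ZF rat 3 or 4, or ZF-SGLT2i rat 3 or 6, the adjusted p was 0.0519 to 0.0549. Against ZL rats the difference was -0.40 (limma, adjusted p = 0.0694). Cdk1, the mitotic kinase, stood at 2.42, 1.30, 0.794 and 1.25 CPM in ZL rats, at 1.82, 1.60, 2.39 and 0.547 CPM in ZF rats and at 1.90, 0.808, 1.01 and 0.446 CPM in ZF-SGLT2i rats. With 4 to 28 reads a rat and overlapping groups, no difference was detectable at this depth (log2 fold change -0.34 in ZF-SGLT2i against ZF, 95% interval -0.92 to 0.25). Ccna2 had means of 1.40 ± 0.20, 1.49 ± 0.21 and 0.968 ± 0.548 CPM and Ccnb2 of 1.41 ± 0.30, 2.12 ± 0.65 and 1.32 ± 0.58 CPM, and neither passed.

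Mki67, which encodes the Ki-67 protein that coats mitotic chromosomes and marks cycling cells, fell in the treated rats against both other groups. It stood at 18.8, 22.0, 19.2 and 14.7 CPM in ZL rats, at 21.9, 21.2, 22.6 and 19.3 CPM in ZF rats and at 18.1, 10.3, 8.45 and 12.4 CPM in ZF-SGLT2i rats. Rats 3, 4 and 6 of the treated group were below every other rat, whereas treated rat 2 was within the lean range and just under the lowest ZF rat. The level in ZF-SGLT2i rats was 0.579 times that in ZF rats (log2 fold change -0.79 ± 0.18, limma, adjusted p = 0.0264) and 0.659 times that in ZL rats (-0.60 ± 0.18, limma, adjusted p = 0.0214), and the difference between ZF and ZL did not pass (0.19, 95% interval -0.19 to 0.57). The first call was lost without ZF rat 2, 3 or 4, or treated rat 3, 4 or 6 (adjusted p = 0.0642 to 0.0920), and the second without ZL rat 1 or 2, or treated rat 3 or 4 (adjusted p = 0.0507 to 0.0654).

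Top2a, the topoisomerase that untangles sister chromosomes, had the same order of means with more spread. It stood at 5.29, 7.11, 4.31 and 2.68 CPM in ZL rats, at 5.47, 5.11, 7.18 and 3.83 CPM in ZF rats and at 5.05, 1.72, 2.82 and 1.34 CPM in ZF-SGLT2i rats. Treated rat 2 again stood with the untreated rats. The log2 fold change of -0.85 ± 0.29 in ZF-SGLT2i against ZF did not pass (limma, adjusted p = 0.138) and passed without treated rat 2 (adjusted p = 0.0464). Against ZL rats it did not pass either (-0.69, limma, adjusted p = 0.0930), and it passed without treated rat 2 or ZL rat 4 (adjusted p = 0.0194 and 0.0364). Smc2 and Smc4, the condensin subunits that fold mitotic chromosomes, were measured on at least 236 reads in each rat and did not pass, with means of 26.3 to 28.5 CPM and 28.4 to 31.3 CPM across the groups.

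**Figure D4:**
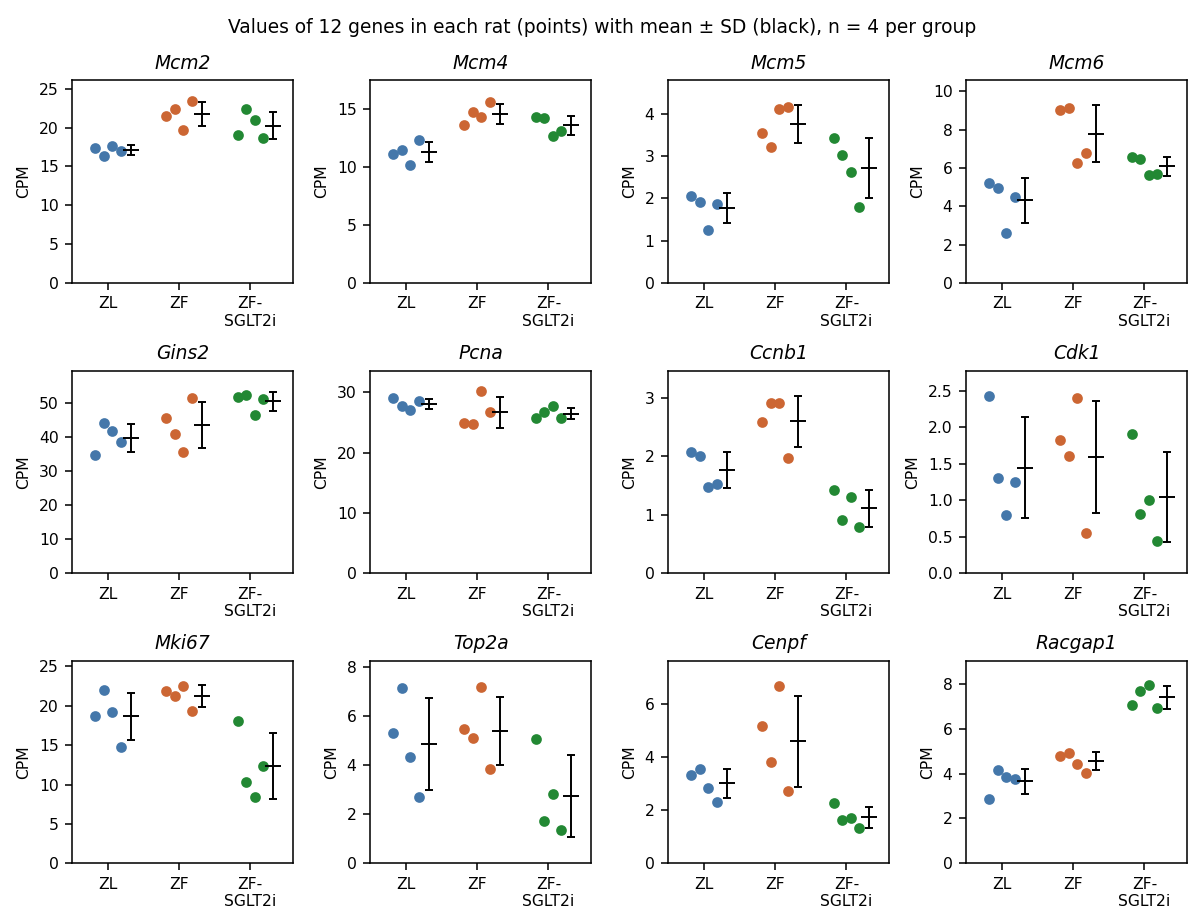
CPM of 12 members in each rat (points, in order of rat number) with the mean and SD of 4 rats (black) on linear axes from 0, for ZL (blue), ZF (orange) and ZF-SGLT2i (green). The ZF points lie above the ZL points for Mcm2, Mcm4, Mcm5 and Mcm6, and the ZF-SGLT2i points lie below the ZF points for Ccnb1, Mki67 and Cenpf and above them for Racgap1.

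Of the spindle and kinetochore members, which attach chromosomes to microtubules and check the attachment, 11 were in the table and 8 were tested, and 1 passed. Cenpf, a kinetochore protein of late G2 and mitosis, stood at 3.32, 3.55, 2.83 and 2.32 CPM in ZL rats, at 5.18, 3.81, 6.67 and 2.73 CPM in ZF rats and at 2.29, 1.62, 1.71 and 1.34 CPM in ZF-SGLT2i rats. All treated rats were below all others, although treated rat 2 and ZL rat 4 almost met, and ZF rats 2 and 4 were the highest of the 12. Its level in ZF-SGLT2i rats was 0.378 times that in ZF rats (log2 fold change -0.99 ± 0.20, limma, adjusted p = 0.0175), and without ZF rat 2 or 4, or ZF-SGLT2i rat 3 or 6, the adjusted p was 0.0501 to 0.0594. Against ZL rats it missed the threshold (-0.55, limma, adjusted p = 0.0570), and it passed without ZL rat 4, ZF rat 4, ZF rat 5 or treated rat 2 (adjusted p = 0.0285 to 0.0476). In ZF against ZL the difference of 0.44 did not pass (limma, adjusted p = 0.144) and passed without ZF rat 5 (adjusted p = 0.0413).

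Tpx2, which builds spindle microtubules and activates Aurora A, had means of 2.67 ± 0.67, 3.72 ± 1.09 and 1.85 ± 0.84 CPM. The treated rats did not overlap with the ZF rats, and the difference of -0.75 missed the threshold (limma, adjusted p = 0.0905). Aurka, the Aurora A kinase itself, had means of 5.52 ± 0.70, 6.82 ± 0.72 and 6.03 ± 0.55 CPM, and did not pass. Plk1, Bub1, Nusap1 and Cdca8 had group means of 0.946 to 2.64 CPM and log2 fold changes of -0.19 to 0.14 over the 3 comparisons, with 95% intervals between -0.65 and 0.62. Kif11, the motor that pushes the spindle poles apart, had means of 76.2 ± 6.5, 73.2 ± 9.9 and 80.2 ± 11.5 CPM and did not pass, and its reads are uncertain where it overlaps Ide, which had means of 156 to 164 CPM. The same uncertainty touches Aurka, which overlaps Fam210b, Nusap1, which overlaps Ndufaf1, Plk1, which overlaps Ern2, and Smc2, which overlaps a predicted gene. Aurkb, Bub1b and Birc5 were counted on 1 to 17 reads a rat with group means of 0.383 to 1.04 CPM, and were not compared.

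At the exit from mitosis Cdc20, the activator of the anaphase-promoting complex, was at 4.29 to 5.03 CPM in ZL rats, 3.83 to 6.51 CPM in ZF rats and 2.79 to 3.62 CPM in ZF-SGLT2i rats. The treated rats lay below all the others, and the differences of -0.45 against ZF (limma, adjusted p = 0.0917) and -0.38 against ZL (limma, adjusted p = 0.0511) missed the threshold. Espl1, the protease that cuts cohesin, had means of 1.14 ± 0.22, 1.73 ± 0.54 and 1.02 ± 0.12 CPM and did not pass. Ube2c, which works with the same complex, was at 5 to 12 reads a rat and was not tested. Without a threshold, the number of members whose treated and ZF values did not overlap was 7 (1 upward and 6 downward, the latter Rrm2, Ccnb1, Mki67, Tpx2, Cenpf and Cdc20), 20.6% of the members compared with 11.2% of all tested genes (5.54% upward and 5.63% downward). In ZF against ZL it was 5 (Mcm2, Mcm4, Mcm5, Mcm6 and Rrm2), all upward, 14.7% compared with 19.0% (8.67% upward). An exact permutation test of 4 against 4 rats cannot go below p = 0.0286 for any single gene.

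Racgap1 ran against the other cytokinesis members. It encodes a part of centralspindlin, which bundles the midzone microtubules and brings Ect2 to the site of cleavage. Racgap1 stood at 2.87, 4.16, 3.86 and 3.75 CPM in ZL rats, at 4.79, 4.91, 4.44 and 4.04 CPM in ZF rats and at 7.05, 7.67, 7.95 and 6.91 CPM in ZF-SGLT2i rats. The lowest treated rat was well above the highest of the other 8 rats, and lean and fatty untreated rats overlapped. It was 1.63-fold higher in ZF-SGLT2i than in ZF rats (log2 fold change 0.60 ± 0.11, limma, adjusted p = 0.0114) and 2.02-fold higher than in ZL rats (0.86 ± 0.11, limma, adjusted p = 0.000173), on 32 to 79 reads a rat, and both calls held without any single rat. Kif23, its partner in centralspindlin, had means of 1.83 ± 0.45, 2.52 ± 0.34 and 2.17 ± 0.44 CPM and did not pass.

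The other cytokinesis members were highest in ZF rats. Ect2, the exchange factor that switches on RhoA for the contractile ring, was at 1.70 to 2.51 CPM in ZL rats, 2.40 to 4.89 CPM in ZF rats and 1.01 to 2.57 CPM in ZF-SGLT2i rats, and missed the threshold in ZF against ZL (0.56, limma, adjusted p = 0.0753) and in ZF-SGLT2i against ZF (-0.78, limma, adjusted p = 0.0575). Prc1, which crosslinks midzone microtubules, had means of 2.42 ± 0.72, 3.78 ± 1.04 and 1.80 ± 0.85 CPM (-0.79 in ZF-SGLT2i against ZF, limma, adjusted p = 0.0751). Kif20a, a midzone motor that overlaps Cdc23, had means of 3.88 ± 1.06, 4.31 ± 0.54 and 2.58 ± 0.81 CPM (-0.59, limma, adjusted p = 0.110). Taking the 23 tested members outside replication, none passed in ZF against ZL by limma or edgeR, 7 had an unadjusted p under 0.05, compared with 3848 of all 11633 tested genes, and DESeq2 called Ect2. In ZF-SGLT2i against ZF DESeq2 called 7 of the 23, the 4 that passed by limma and also Ect2, Prc1 and Tpx2. It called 641 of all genes there, compared with 366 by limma.

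Single rats carried much of the spread, and the same rats stood out across mitotic members. Treated rat 2 had the highest value of its group in 14 of the 23 members outside replication, compared with 22.5% of all tested genes, and treated rat 6 the lowest in 14, compared with 29.9%. ZF rat 5 had the lowest value of its group in 16 of the 23, compared with 29.2% of all genes, and ZF rat 4 the highest in 12, compared with 28.3%. ZL rat 2 had the highest in 15, compared with 24.3%. Treated rat 6 and ZF rat 5 had the fewest reads of their groups, and treated rat 2, ZF rat 4 and ZL rat 2 had the most. ZL rat 3 had the fewest reads of the lean rats. It was the lowest lean rat in 8 of the 23, and ZL rat 4 in 9. The part of read depth in this order of rats was not tested. The number of members called in ZF-SGLT2i against ZF was 8 without treated rat 2, 7 without ZF rat 5, and 1, namely Racgap1, without ZF rat 4, treated rat 3 or treated rat 6. The number of all tested genes called moved as well. It was 366 with all rats, 261 without treated rat 2, 569 without ZF rat 5, and 188, 176 and 181 without ZF rat 4, treated rat 3 and treated rat 6.

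Leukocyte and injured tubule transcripts were high or low in some of the same rats. The summed level of Ptprc, Coro1a and Laptm5, which all leukocytes express, was 54.1, 51.1, 40.7 and 54.0 CPM in ZL rats, 74.0, 68.0, 78.5 and 49.3 CPM in ZF rats and 61.8, 43.2, 33.6 and 42.6 CPM in ZF-SGLT2i rats. It was low in ZF rat 5 and high in treated rat 2, as for Mki67 and Top2a, and in the treated group it was lowest in rat 4. The summed level of the 8 injured tubule markers was 2031, 804, 1505 and 660.5 CPM in ZF rats and 1251, 1227, 922 and 563 CPM in ZF-SGLT2i rats. Within these 2 groups it too was lowest in ZF rat 5 and highest in treated rat 2, and lowest in treated rat 6. In ZL rats it was 523, 479, 426 and 551 CPM. There it was highest in rat 4, the lean rat with the lowest Mki67 and Top2a. Of these 8 markers Vcam1 passed in ZF-SGLT2i against ZF, at 26.8 ± 6.5 and 16.1 ± 1.7 CPM (-0.67, limma, adjusted p = 0.0387), and it was also lower than in ZL rats (-0.50, limma, adjusted p = 0.0339). Of the 3 genes, of which Ptprc gave the most CPM over the 12 rats together, Coro1a passed, at 14.2 ± 2.0, 20.9 ± 1.9 and 12.2 ± 3.8 CPM (log2 fold change 0.54 in ZF against ZL, limma, adjusted p = 0.0346, and -0.76 in ZF-SGLT2i against ZF, limma, adjusted p = 0.0220). The 5 macrophage markers (Cd68, Csf1r, Adgre1, C1qa and Cd163), led by Csf1r, summed to 58.4 ± 9.7, 75.1 ± 13.2 and 64.8 ± 24.8 CPM with treated rat 2 at 102 CPM, 4 of them were tested, and none passed in any of the 3 comparisons by limma (1, 1 and 0 had an unadjusted p under 0.05). The lymphocyte genes Cd3e and Cd3g had group means of 0.319 to 0.805 CPM and were too low to test. Cd8a did not pass, and Ms4a1 and Cd79a were not analysed here. Cd3e, Cd3g and Cd8a summed to 2.06, 2.34, 2.27 and 2.14 CPM in ZL rats. The sum was 2.01, 2.91, 2.56 and 3.83 CPM in ZF rats, highest in ZF rat 5, unlike the leukocyte sum. It was 1.81, 1.41, 0.604 and 1.34 CPM in ZF-SGLT2i rats, highest in rat 2. These sums rest on 6 to 35 reads a rat. Cd3e in ZF rats, at 0.702 to 0.984 CPM, did not overlap with either other group. Among genes of mesangial cells and fibroblasts, Pdgfrb (0.67, limma, adjusted p = 0.00218) and Col1a1 (0.61, limma, adjusted p = 0.0435) rose in ZF against ZL. Pdgfrb (-0.50, limma, adjusted p = 0.0309) and Dcn (-1.11, limma, adjusted p = 0.00827) fell in ZF-SGLT2i against ZF, while Pdgfra passed in neither. Pdgfrb had means of 95.1 ± 13.8, 152 ± 21 and 106.4 ± 9.8 CPM and Dcn of 78.8 ± 15.1, 91.7 ± 29.0 and 40.3 ± 4.2 CPM in ZL, ZF and ZF-SGLT2i rats. The podocyte genes Nphs1, Podxl and Synpo rose in ZF against ZL (0.47, 0.40 and 0.34, limma, adjusted p = 0.0093 to 0.0328) and had log2 fold changes of -0.01 to 0.12 in ZF-SGLT2i against ZF that did not pass. Markers of the distal nephron and the inner medulla also moved in the treated rats. Of 4 distal markers (Umod, Slc12a1, Slc12a3 and Aqp2), Aqp2, the water channel of the collecting duct, rose in ZF-SGLT2i against ZF, from 558 ± 99 to 852 ± 77 CPM (0.62, limma, adjusted p = 0.0495). Without overlap between the groups but short of the threshold, Slc12a3 had means of 2255 ± 457 and 2989 ± 142 CPM (0.43, limma, adjusted p = 0.198) and Umod of 2966 ± 735 and 1856 ± 215 CPM (-0.65, limma, adjusted p = 0.0917). The 4 summed, with the most CPM from Umod, to 6020 ± 634, 6549 ± 697 and 6351 ± 370 CPM in ZL, ZF and ZF-SGLT2i rats. The 3 inner medulla markers (Aqp4, Fxyd4 and Upk1b), led by Aqp4, summed to 79.2 ± 21.5, 80.0 ± 15.4 and 121 ± 20 CPM, and Aqp4 in ZF-SGLT2i rats was 1.62 times its level in ZF rats with no overlap (0.71, limma, adjusted p = 0.117). All 5 endothelial markers (Pecam1, Kdr, Cdh5, Emcn and Tek) were above 0 in ZF against ZL and below 0 in ZF-SGLT2i against ZF, and none passed. Led by Kdr, they summed to 364 ± 57, 442 ± 32 and 428 ± 58 CPM. Tek passed in ZF-SGLT2i against ZL (0.38, limma, adjusted p = 0.0453). The erythroid gene Hbb had means of 0.939, 3.85 and 5.13 CPM, with ZF above ZL without overlap, and did not pass. The part of leukocytes, injured tubule, mesangial cells, fibroblasts, podocytes, endothelium, erythroid cells and nephron segments in the mitotic result was not tested.

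**Figure D5:**
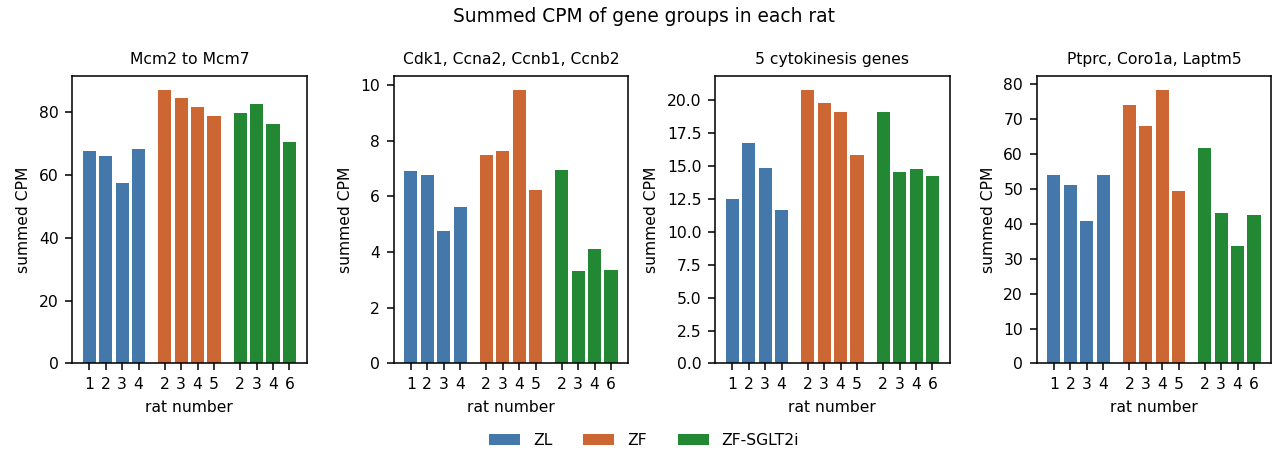
Summed CPM in each rat, as bars from 0, for Mcm2 to Mcm7, for Cdk1 with the cyclins, for the 5 cytokinesis members and for the leukocyte genes Ptprc, Coro1a and Laptm5. The MCM bars of all 8 fatty rats are above those of the lean rats, and treated rat 2 has the tallest treated bar in the cyclin, cytokinesis and leukocyte panels.

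Genes of the same machinery outside the members were counted in the same way. Of 40 tested replication genes, 6 rose and 2 fell in ZF against ZL (8 of 40, compared with 18.8% of all tested genes). Without ZF rat 2 the calls of Pola2, Dut, Chaf1b and Timeless among these 8 were lost, and that of Pola2 was lost under 16 of 20 alternatives. Lig1, the ligase that joins Okazaki fragments, rose from 25.2 ± 2.8 to 35.4 ± 1.6 CPM (0.48, limma, adjusted p = 0.00133) and was 31.8 ± 0.9 CPM in treated rats. Cdt1, which loads the MCM ring onto origins, rose from 1.01 ± 0.26 to 2.49 ± 0.51 CPM (0.79, limma, adjusted p = 0.00313), and Pold1, a subunit of polymerase delta, from 5.23 ± 0.84 to 8.13 ± 1.16 CPM (0.55, limma, adjusted p = 0.0161). In ZF-SGLT2i against ZF 1 of the 40 passed (2.5%, compared with 3.15% of all tested genes), Timeless, a fork protein that also serves the circadian clock, which fell from 5.73 ± 0.81 to 3.61 ± 0.57 CPM (-0.55, limma, adjusted p = 0.0333), while Uhrf1 (-0.69), Rpa1 (0.22) and Pola1 (-0.35) did not (limma, adjusted p = 0.120 to 0.161). In ZF-SGLT2i against ZL 7 were higher, among them Lig1, Cdt1 and the single-strand binding subunit Rpa1, and 2 were lower, 22.5% of the 40 compared with 27.4% of all tested genes. The Timeless call was lost without ZL rat 1, ZF rat 2, 3 or 5, or treated rat 3, 4 or 6 (adjusted p up to 0.103).

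Of 39 tested mitosis genes outside the members, 4 rose and 3 fell in ZF against ZL, 1 rose and 2 fell in ZF-SGLT2i against ZF, and 5 were higher and 5 lower in ZF-SGLT2i against ZL. These were 17.9%, 7.69% and 25.6% of the 39, compared with 18.8%, 3.15% and 27.4% of all tested genes. Incenp, the scaffold that holds Aurora B at the centromere and midzone, was at 24.9 to 26.7 CPM in ZL rats, 20.1 to 21.3 CPM in ZF rats and 39.7 to 51.6 CPM in ZF-SGLT2i rats, with no overlap between any 2 groups. It was lower in ZF than in ZL rats (-0.32, limma, adjusted p = 0.0101) and higher in ZF-SGLT2i than in ZF rats (1.08, limma, adjusted p = 5.91e-06). Kifc1, a minus-end motor that clusters spindle poles, fell in both steps, from 14.4 ± 3.1 to 9.24 ± 0.80 to 5.66 ± 0.67 CPM (-0.57 and -0.62, limma, adjusted p = 0.0101 and 0.0220). Wee1, the kinase that holds Cdk1 inactive, rose from 31.0 ± 2.4 to 52.6 ± 7.2 CPM in ZF rats (0.74, limma, adjusted p = 0.000488) and stood at 57.4 ± 5.6 CPM in treated rats. Knl1, a kinetochore scaffold, rose from 2.29 ± 0.51 to 4.31 ± 0.35 CPM (0.70, limma, adjusted p = 0.00594) and was 2.71 ± 0.59 CPM in treated rats (-0.53, limma, adjusted p = 0.0695). Ckap2, a spindle protein, fell from 2.01 ± 0.49 to 0.638 ± 0.060 CPM with treatment (-0.87, limma, adjusted p = 0.0212), and Melk, a mitotic kinase, was lower in ZF-SGLT2i than in ZL rats (-1.95, limma, adjusted p = 0.00437) with a wide spread among lean rats, 9.36 ± 6.85 CPM. In ZF-SGLT2i against ZF the Ckap2 call was lost without ZF rat 2, 3 or 4, or treated rat 2, 3 or 6 (adjusted p up to 0.0668), and the Kifc1 call without ZF rat 2 or 3, or treated rat 3 or 6 (adjusted p up to 0.0721).

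Of 19 tested regulators of entry into S phase, 2 rose and 2 fell in ZF against ZL, 21.1% compared with 18.8% of all tested genes. Ccnd1, cyclin D1 of the G1 phase, rose from 216 ± 46 to 316 ± 35 CPM (0.56, limma, adjusted p = 0.00661) and Ccnd3 by 0.33 (limma, adjusted p = 0.0163), while Rb1, the retinoblastoma protein that restrains E2F, fell from 110 ± 5 to 91.7 ± 1.5 CPM (-0.25, limma, adjusted p = 0.00415) and its relative Rbl2 by 0.16 on the log2 scale (limma, adjusted p = 0.0292), the latter call being lost without ZL rat 1 or 4, or ZF rat 2, 3 or 5 (adjusted p up to 0.0743). In ZF-SGLT2i against ZF none of the 19 passed by limma or edgeR, 6 had an unadjusted p under 0.05, compared with 1996 of all 11633 tested genes, and DESeq2 called Ccnd1, whose mean was 234 ± 13 CPM in treated rats (-0.43, limma, adjusted p = 0.0752). E2f1 (-0.62), Ccnd2 (-0.36) and Ccne2 (-0.34) did not pass either, with limma adjusted p of 0.0622 to 0.137. In ZF-SGLT2i against ZL Cdk2 was higher (0.51, limma, adjusted p = 0.00301) and Rb1 lower (-0.31, limma, adjusted p = 0.000657), 10.5% of the 19 compared with 27.4% of all tested genes, and Cdc25a and Ccnd3 did not pass.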

How the data were processed

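Total RNA of 12 renal cortices was sequenced as directional, ribosomal RNA-depleted libraries. The submitters' processing notes name Trimmomatic 0.38, RSEM 1.3.0, Bowtie2, edgeR and build rn6, without roles. The authors deposited one table of normalised signal, 13151 genes by 12 rats. Each value was a whole number of reads (100% of values, within 1e-06 reads) times a constant per rat equal to counts per 1000000 (CPM) with edgeR's TMM factors, so the signal is given as CPM and reads were recovered. Genes with fewer than 12 reads over the 12 rats are not in the table. No column of another sample was present. Many members rest on few reads, whose counting error adds to the spread between rats.

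The rats were grouped by their labels, n = 4. Replicates differed beyond counting noise (chi-square per gene 5.43 to 50.1). Genes with at least 1 CPM in at least 4 rats (11633) were fitted over all 12 rats with limma 3.58.1 (trend, log2(CPM + 1), two-sided, Benjamini-Hochberg over all genes), in R 4.3.3, after a test on simulated data. The threshold was an adjusted p of 0.05. Single genes also had an exact permutation test. On the recovered reads edgeR 4.0.16 called 2177, 368 and 3216 genes and DESeq2 1.42.0 called 2358, 641 and 3282 in the 3 comparisons, in the order of the report, beside 2185, 366 and 3184 by limma. Other alternatives were a pseudocount of 0.1, other filters, median ratio scaling, only the 2 groups compared, the rat number as a block and leaving out each rat.

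Values in all rats are given for members with an adjusted p under 0.05 in any comparison and for Mki67, Top2a, Cdk1, Pcna and Ccnb1. The other members are given by ranges and counts, and of the other pathway genes the 4 with the smallest adjusted p in each comparison. Printed promoters are those of the smallest adjusted p within and outside replication, separately for the comparison of ZF with ZL and that of ZF-SGLT2i with ZF, among members with a RefSeq promoter. The members, lists and tests were chosen with earlier results of these data known. Knl1 is in the table under its older symbol Casc5. A gene that this rule names among the other replication genes is not reported here.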

Additional observations from a re-analysis of the deposited data

Results flagged for a closer look

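In each group of 4 rats the highest or lowest value was set apart where its gap to the nearest value passed Dixon's critical value for 4 samples, which chance does in about 1 in 20 groups. Among the 38 members this held for 1 of 114 groups, Smc2 in ZF-SGLT2i rat 4, at 32.2 CPM beside 26.3 to 27.3 CPM in the other treated rats. Among summed gene lists it held for 3 of 60 groups. The 5 cytokinesis members summed to 19.1 CPM in ZF-SGLT2i rat 2 beside 14.3 to 14.8 CPM in the other treated rats. The macrophage markers summed to 102 CPM in the same rat beside 48.0 to 54.8 CPM, and to 44.0 CPM in ZL rat 3 beside 62.2 to 64.8 CPM in the other lean rats.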

How the results depend on the processing

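Of 720 values of the members described in all rats under 20 alternatives, 650 kept direction and side of the threshold, 50 no longer passed, 11 newly passed and 9 changed sign. The causes were not tested. Mcm5 and Mcm6 in ZF against ZL and Racgap1 in ZF-SGLT2i against ZL passed under all 20. No pairing of the rats by number was seen (9 pairs of equal number, r from -0.376 to 0.253, 1 of 9 rats correlating best with its own number). With so few rats in each group this check cannot exclude a pairing. With the replicate block the genes called were 807 in ZF against ZL, 223 in ZF-SGLT2i against ZF and 1502 in ZF-SGLT2i against ZL, beside 2185, 366 and 3184 without it, and the members called were 3, 2 and 2, beside 4, 4 and 5. Ect2 was newly called by the block in the first and the second of these comparisons. The member calls that ended were those of Mcm2 and Mcm4 in ZF against ZL (limma, adjusted p = 0.0758 and 0.128), Ccnb1, Mki67 and Racgap1 in ZF-SGLT2i against ZF (0.0660, 0.0597 and 0.0659) and Mcm2, Mcm4 and Mki67 in ZF-SGLT2i against ZL (0.0757, 0.165 and 0.0598). Among the other pathway genes described, it ended the calls of Ccnd1, Ccnd3, Rb1, Cdt1, Pold1 and Incenp in ZF against ZL. Their adjusted p was then 0.0704, 0.102, 0.0595, 0.0510, 0.0953 and 0.0919 (limma). Also ended were Rbl2 in ZF against ZL, Timeless, Kifc1 and Ckap2 in ZF-SGLT2i against ZF, and Cdt1 and Cdk2 in ZF-SGLT2i against ZL. The block also turned Gins2 in ZF against ZL (-0.0276), Pcna in ZF-SGLT2i against ZF (0.0104) and Cdk1 in ZF-SGLT2i against ZL (0.0605). DESeq2 called 641 genes and 8 members in ZF-SGLT2i against ZF and 3 members in ZF-SGLT2i against ZL. Leaving out 1 rat gave 1384 to 2453, 176 to 569 and 2238 to 3302 genes and 4 to 7, 1 to 8 and 1 to 8 members in the 3 comparisons. Leaving out 1 rat gave log2 fold changes of -0.0422 (without ZL replicate 4) to 0.3377 for Top2a and -0.0789 (without ZF replicate 4) to 0.299 for Cdk1 in ZF against ZL, the latter also below 0 without ZL replicate 3, and -0.0404 to 0.0545 for Pcna in ZF-SGLT2i against ZF. Median ratio scaling moved the median of all genes by at most 0.0084 (log2). For members on few reads a rat, counting error limits what can be detected.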
